A study of Homo sapiens with 21 samples.

Results

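The genes described here are 43 human genes of the hypoxia response and of glycolysis, the pathway that splits glucose to pyruvate. They were matched by symbol to the Ensembl gene identifiers of the count tables, each to a single gene, among 57500 genes in all. They were divided into 19 genes of glucose uptake, glycolysis and pyruvate or lactate handling and 24 other targets of the hypoxia-inducible factors (HIF) or oxygen-sensing genes. RNA was sequenced from tumours of HT1376, an established human bladder carcinoma cell line, grown in the right flank of female CB17 SCID mice, an immunodeficient strain, aged 6 to 8 weeks at the start. Dosing began 11 to 15 days after the cells were injected, at average tumour volumes of 139 to 160 mm3, and tumours were collected on day 15, 1 hour after a dose. There were 6 compounds, each given by mouth once daily at 75 mg/kg, with 3 libraries each: CPI-0209, CPI-1205, PF-06821497, MAK683, Valemetostat and tazemetostat. Another 3 libraries came from tumours given vehicle. All groups share the 1 cell line, so the results describe 1 tumour model. The series calls all 6 compounds EZH2 inhibitors. EZH2 is the enzyme of PRC2, the polycomb complex that marks histone H3 for gene silencing. MAK683, by contrast, is known as a ligand of EED, a partner of EZH2 in the complex, and Valemetostat is known to inhibit EZH1, the close relative of EZH2, as well.

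When oxygen is plentiful, prolyl hydroxylases of the EGLN family mark the alpha subunits HIF1A and EPAS1 (also called HIF-2 alpha) for destruction. When oxygen is short, these subunits persist, pair with ARNT and bind DNA at sites with the core letters ACGTG or GCGTG. Known targets raise glucose uptake, glycolysis and lactate export, restrain entry of pyruvate into mitochondria, buffer pH outside the cell, drive vessel growth and modify collagen.

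All 43 genes passed the filter on low counts, in a table of 21958 genes tested. Values below are in CPM, a gene's count scaled to a common library total and adjusted for library composition, given for libraries 1, 2 and 3 of a group in that order. Fold changes are on the log2 scale with their standard errors (SE). Adjusted p-values are from the edgeR quasi-likelihood test with Benjamini-Hochberg adjustment over all genes tested, and a gene is said to rise or fall where that p was under 0.05. Library totals ran from 9725690 to 25771778 counts. Keratin 5 stood between 1078 and 3900 CPM and EPCAM between 23.9 and 53.0 CPM in all libraries, so markers of a carcinoma were present. Of the urothelial markers, GATA3 stood between 96.0 and 233 CPM and UPK2 between 1.17 and 7.67 CPM, while UPK3A reached only 0.115 CPM. Carcinoma and urothelial markers (11 of 12 tested) summed to 9063 to 10722 CPM with CPI-0209 and 12541 to 13256 CPM with vehicle, where UPK3A was at 0. Skeletal muscle markers (14 of 15 tested) summed to 533, 419 and 1900.1 CPM in the CPI-0209 libraries against 597 to 649 CPM in vehicle libraries, with none at 0 in either group. The median log2 CPM of the 14 tested, used below as the muscle covariate, spread more. It was 4.35, 3.18 and 6.64 in the CPI-0209 libraries and 2.47, -1.33 and 3.27 in the vehicle libraries. Summed endothelial markers (10 of 11 tested) stood at 58.5 to 77.0 CPM with CPI-0209 and 25.1 to 26.5 CPM with vehicle, and fibroblast markers (12 of 12 tested) at 1735 to 4422 CPM with CPI-0209 and 1276 to 2049 CPM with vehicle. Adipocyte markers (3 of 7 tested) summed to 39.8 to 46.5 CPM with CPI-0209 and 6.50 to 7.79 CPM with vehicle, where ADIPOQ was at 0. Lymphocyte markers (2 of 6 tested) summed to 3.40 to 5.11 CPM with CPI-0209 and 0.932 to 0.965 CPM with vehicle, where MS4A1 was at 0. Macrophage and granulocyte markers (10 of 14 tested) summed to 3938 to 4351 CPM with CPI-0209 and 2692 to 3915 CPM with vehicle, where TYROBP, C1QA and C1QC were at 0. The vehicle sum thus rests on other genes of the list, which includes S100A8 and S100A9, and does not measure macrophage content. Host cells in these tumours are of the mouse, while the counts are of human genes, and any removal of mouse reads is not given. The muscle, endothelial, fibroblast, adipocyte and lymphocyte sums therefore do not measure numbers of such cells either. The part of such cells in the results below was not tested, apart from fits with a muscle covariate or without a library, and in bulk tumour RNA a smaller number of cells of a type and less RNA per cell cannot be told apart. The labels do not say that libraries came from separate animals, so the p-values reflect spread among libraries, which may be technical. Headers of 3 count columns, PF-06821497 library 2 and CPI-1205 libraries 2 and 3, carry a resubmission mark. Results of the 43 genes for both compounds are given below with and without those libraries.

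In vehicle tumours, the 43 genes spanned more than 3 orders of magnitude in length-scaled expression, given as RPKM, which is CPM divided by gene length in kilobases. GAPDH, the glycolytic enzyme often used as a reference gene, was highest at 821 ± 91.7 RPKM (SD, n = 3). The enolase ENO1 and lactate dehydrogenase A (LDHA) followed at 511 ± 33.8 and 506 ± 16.7 RPKM and overlapped each other. Aldolase A (ALDOA) stood at 445 ± 46.0 RPKM and the glucose transporter SLC2A1 at 374 ± 44.4 RPKM. At the other end, CA9, PDK1, CA12, LOX and BNIP3 had mean levels of 2.37, 1.68, 0.545, 0.461 and 0.323 RPKM. Low values of BNIP3 need care, because 44 genes named as its pseudogenes summed to 4.06 CPM in vehicle libraries against 1.72 CPM for the gene, so reads may have been split among copies. The 13 PGAM1 pseudogenes held 8.02% as much as PGAM1, and those of every other gene of the 43 held under 3%. The strand setting of the counting is not given in the sources used here, so reads of overlapping or antisense genes may be included.

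**Figure D1:**
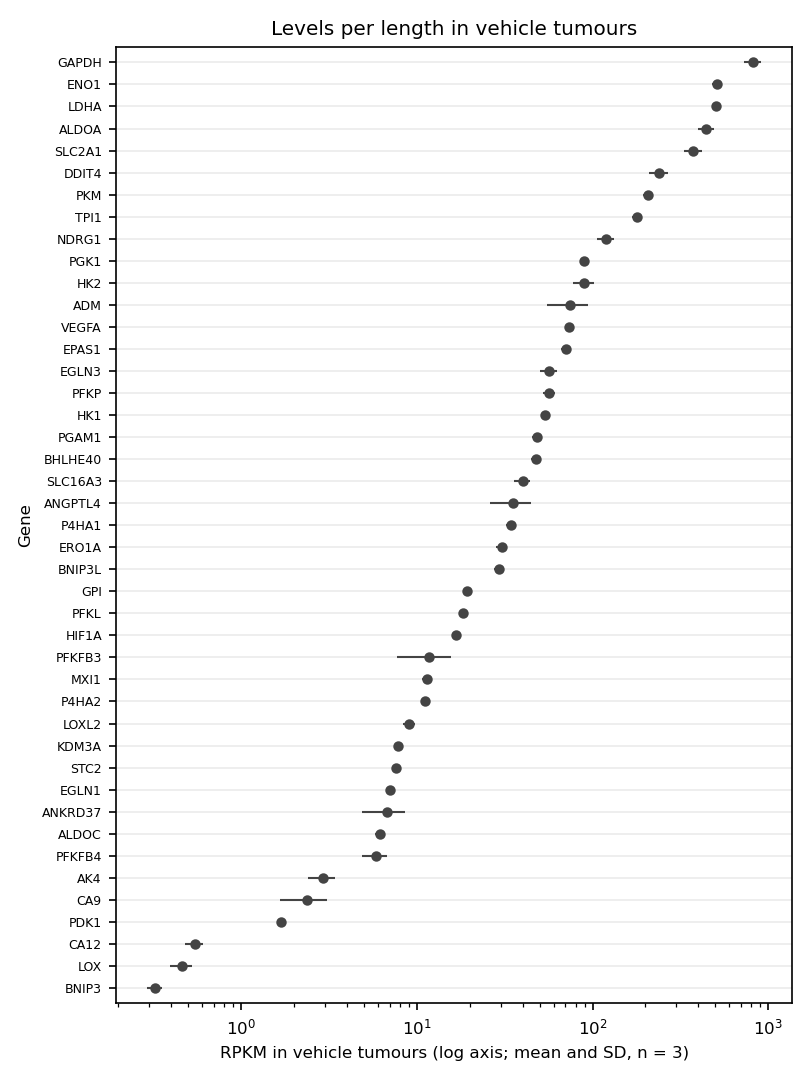
Level of each of the 43 genes in vehicle tumours, in RPKM on a log axis; points are means and bars the SD of 3 libraries. Glycolytic enzymes fill the top of the range, led by GAPDH at 821 RPKM, and BNIP3 is lowest at 0.323 RPKM.

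With CPI-0209, 26 of the 43 genes fell and 4 rose against vehicle, while among all genes tested 18.8% fell and 22.3% rose. The median log2 fold change of the 43 was -0.58, against -0.02 over all genes tested. In 32 genes every CPI-0209 library was below every vehicle library, and in 5 every CPI-0209 library was above; over all genes tested these shares were 27.5% and 27.5%. Of the 19 glycolysis genes 12 fell and none rose, with a median of -0.55. Of the 24 other targets 14 fell and 4 rose, with a median of -0.76. The 4 that rose were CA12, LOX, STC2 and AK4. The falls were spread over every role: 3 of 3 genes of glucose uptake and hexose phosphorylation, 6 of 11 glycolytic enzymes, 3 of 5 flux regulators and lactate genes, 3 of 4 oxygen-sensing genes, 1 of 2 carbonic anhydrases, 2 of 4 secreted factors, 1 of 2 mitophagy receptors, 2 of 5 collagen and protein maturation genes and 5 of 7 signalling and chromatin genes. Without CPI-0209 library 3, which had the highest muscle markers, 23 fell and 4 rose, and with muscle marker level as a covariate 25 fell and 3 rose.

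**Figure D2:**
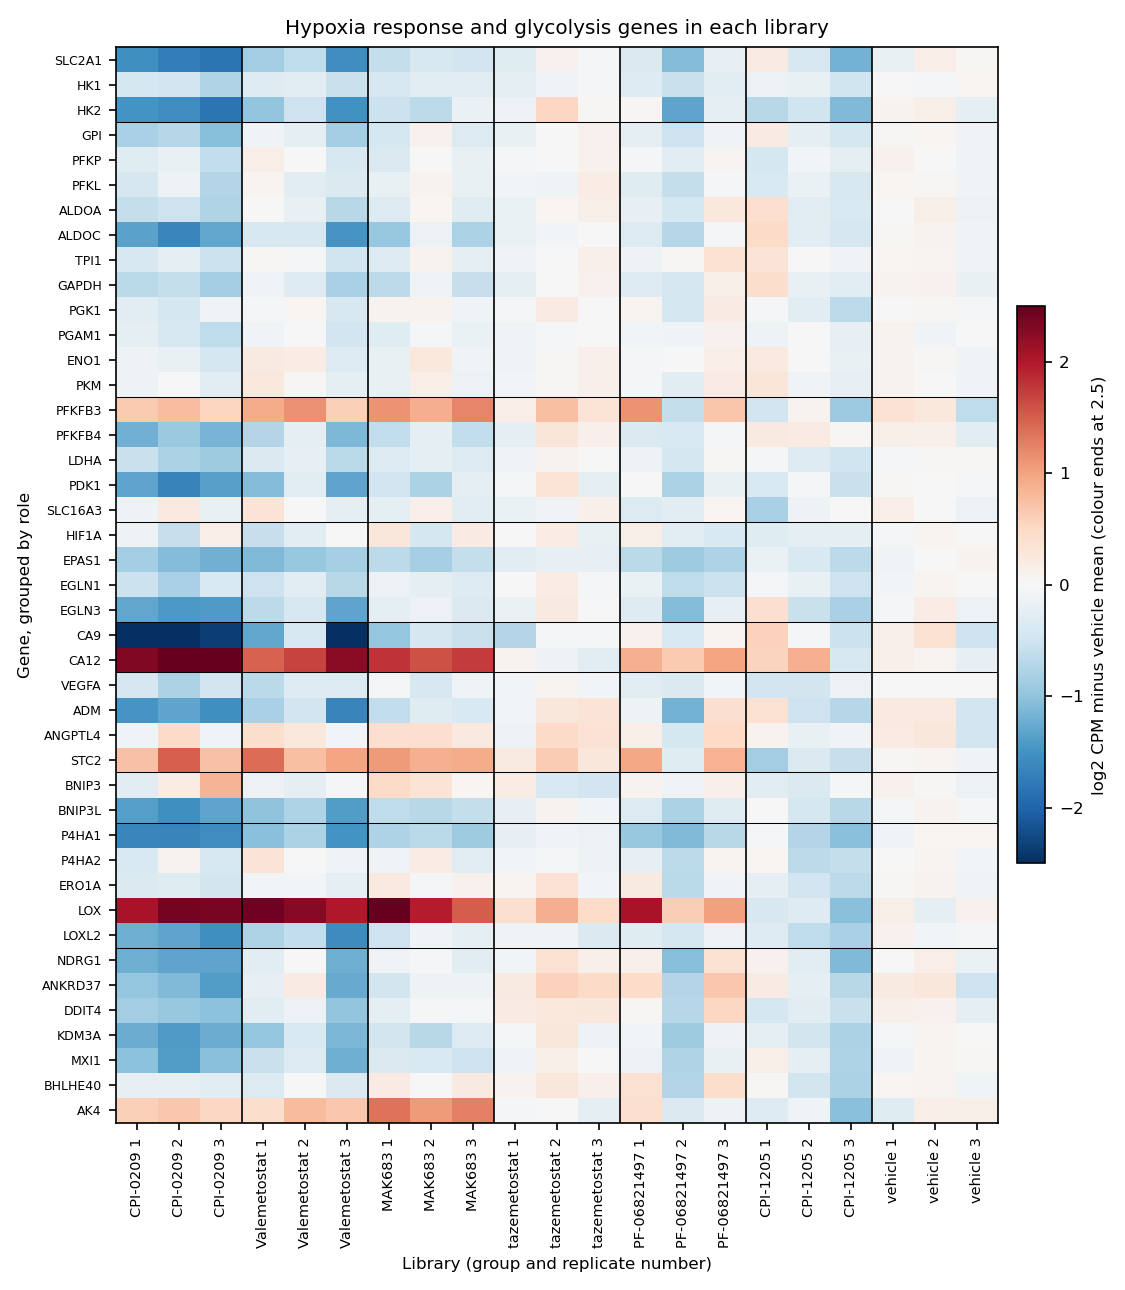
Deviation of each of the 43 genes (down) in each of the 21 libraries (across, vehicle last) from the vehicle mean, in log2 CPM, ordered by role. The 3 CPI-0209 libraries are low over most genes, with CA12, LOX, STC2 and AK4 high, and Valemetostat library 3, PF-06821497 library 2 and CPI-1205 library 3 stand below the other libraries of their groups.

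RNA of the glucose transporter SLC2A1 and of hexokinases HK1 and HK2 fell with CPI-0209. SLC2A1 (chr1:42925375-42959173, minus strand, hg38), the transporter GLUT1 that brings glucose into the cell, had 635, 552 and 519 CPM in CPI-0209 tumours, against 1614, 2051 and 1860.4 CPM in vehicle tumours. All CPI-0209 libraries were below all vehicle libraries, and the log2 fold change was -1.69 ± 0.27 (SE; adjusted p = 4.87e-05). With Valemetostat it had 1005, 1177 and 629 CPM and fell by 0.97 on the log2 scale (SE 0.27, adjusted p = 0.00958), though without Valemetostat library 3, the lowest, adjusted p was 0.0722. Hexokinase 1 (HK1, chr10:69269984-69401882, plus strand), which traps glucose in the cell as its phosphate, had 241, 234 and 195 CPM with CPI-0209 and 328, 316 and 338 CPM with vehicle. The groups did not overlap, and the change was smaller than that of SLC2A1, at -0.55 ± 0.12 (adjusted p = 0.000793). Hexokinase 2 (HK2, chr2:74833981-74893359), the isoform induced in many tumours, averaged 176 ± 20.4 CPM with CPI-0209 and 544 ± 74.5 CPM with vehicle (SD, n = 3 each), a change of -1.62 ± 0.29 (adjusted p = 0.000135).

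The 11 enzymes that carry glucose phosphate to pyruvate had smaller log2 fold changes than the transporter, a difference that was not tested. Their median log2 fold change with CPI-0209 was -0.41, and 6 fell. Glucose phosphate isomerase (GPI, chr19:34359480-34402156, plus strand) had 101, 107 and 83.6 CPM with CPI-0209 and 180.0, 181 and 166 CPM with vehicle, without overlap, a change of -0.86 ± 0.19 (adjusted p = 0.00103). Aldolase C (ALDOC, chr17:28573115-28577264, minus strand), the scarcest aldolase measured, had 7.08, 5.80 and 7.36 CPM with CPI-0209 and 18.5, 19.2 and 16.8 CPM with vehicle. Its libraries did not overlap and its change, -1.43 ± 0.27 (adjusted p = 0.000261), exceeded the -0.62 ± 0.21 of ALDOA (adjusted p = 0.0206) in size, though the difference between these aldolases was not tested. GAPDH averaged 1492 ± 125 CPM with CPI-0209 and 2447 ± 273 CPM with vehicle and fell by 0.71 (adjusted p = 0.0081). The phosphoglycerate mutase PGAM1 fell by 0.42 (adjusted p = 0.0101) and the phosphofructokinase PFKL by 0.41 (adjusted p = 0.0414). The other 5 did not pass the test. They were the phosphofructokinase PFKP at -0.36 ± 0.15, the triosephosphate isomerase TPI1 at -0.39 ± 0.16, the phosphoglycerate kinase PGK1 at -0.27 ± 0.17, ENO1 at -0.25 ± 0.15 and the pyruvate kinase PKM at -0.13 ± 0.16, with adjusted p from 0.0548 to 0.529. Several of these calls turned on 1 library. PFKL lost its call without any of 12 libraries (vehicle 1, 2 and 3, CPI-0209 1 and 3, Valemetostat 3, MAK683 1 and 3, tazemetostat 1, PF-06821497 1, CPI-1205 2 and 3), with adjusted p of 0.062 to 0.213 and a value of -0.27 without CPI-0209 3. ALDOA lost its own without vehicle 2, CPI-0209 1 or CPI-0209 3 (adjusted p = 0.0608 to 0.0752), and PGAM1 without CPI-0209 3 (adjusted p = 0.0665). With the muscle marker covariate GAPDH stood at -0.55 (adjusted p = 0.0561), ALDOA at -0.49 (adjusted p = 0.0973) and PFKL at -0.30 (adjusted p = 0.163).

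Of the flux regulators and genes of pyruvate and lactate, LDHA, PDK1 and PFKFB4 fell with CPI-0209. LDHA (chr11:18394388-18408425, plus strand), which turns pyruvate to lactate, had 2131, 1823 and 1705 CPM with CPI-0209 and 3024, 3214 and 3190.3 CPM with vehicle. The groups did not overlap, and the change was -0.74 ± 0.14 (adjusted p = 0.000319). Pyruvate dehydrogenase kinase 1 (PDK1, chr2:172555373-172608669, plus strand), which holds pyruvate out of the citric acid cycle, had 9.98, 7.82 and 9.65 CPM with CPI-0209 and 25.5, 25.1 and 24.5 CPM with vehicle. The vehicle libraries were close together and well above all CPI-0209 libraries, a change of -1.46 ± 0.25 (adjusted p = 7.89e-05). Of the enzymes that make and break a fructose bisphosphate that activates phosphofructokinase, PFKFB4 averaged 16.5 ± 1.68 CPM with CPI-0209 and 35.6 ± 5.92 CPM with vehicle and fell by 1.11 (adjusted p = 0.000104). Its relative PFKFB3 had 95.9, 104 and 89.2 CPM with CPI-0209 and 78.9, 73.5 and 39.3 CPM with vehicle and did not pass the test, at 0.59 ± 0.34 (adjusted p = 0.171). The lactate exporter SLC16A3 had means of 357 ± 61.0 CPM with CPI-0209 and 359 ± 37.5 CPM with vehicle, a log2 fold change of -0.01 ± 0.19 with a 95% interval of -0.40 to 0.38 (adjusted p = 0.975).

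Of the HIF alpha subunits, EPAS1 fell and HIF1A did not pass the test with CPI-0209. HIF1A (chr14:61695513-61748259, plus strand) had 78.9, 57.5 and 96.6 CPM with CPI-0209 and 82.6, 90.0 and 84.7 CPM with vehicle. The groups overlapped, and the log2 fold change was -0.15 ± 0.19, with a 95% interval of -0.54 to 0.25 (adjusted p = 0.574); with the muscle marker covariate it was -0.47 (adjusted p = 0.0486). EPAS1 (chr2:46293667-46386703, plus strand) had 287, 243 and 222 CPM with CPI-0209, 241, 267 and 290.0 CPM with Valemetostat, 328, 289.6 and 343 CPM with MAK683, 427, 448 and 445 CPM with tazemetostat, 322, 279.6 and 299.6 CPM with PF-06821497, 459.7, 394 and 326 CPM with CPI-1205 and 482, 516 and 549 CPM with vehicle. Every library of every compound was below the lowest vehicle library. EPAS1 fell with CPI-0209 (-1.04 ± 0.13, adjusted p = 1.5e-06), Valemetostat (-0.95 ± 0.13, adjusted p = 8.14e-06), PF-06821497 (-0.78 ± 0.13, adjusted p = 0.000406) and MAK683 (-0.69 ± 0.13, adjusted p = 0.000537), and did not pass the test with tazemetostat (-0.23 ± 0.13) or CPI-1205 (-0.39 ± 0.13). It had the smallest adjusted p of the 43 for the mean of the 6 compounds against vehicle, with a change of -0.68 ± 0.09 (adjusted p = 2.08e-05).

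The hydroxylases that mark these subunits, themselves known HIF targets, were lower with CPI-0209. EGLN1 (chr1:231363751-231425044, minus strand), the main oxygen sensor of the family, had 34.8, 28.9 and 38.9 CPM with CPI-0209 and 48.3, 53.2 and 51.1 CPM with vehicle. The groups did not overlap, and it fell by 0.58 (SE 0.14, adjusted p = 0.00303). EGLN3 (chr14:33924231-34462774, minus strand) had 168, 154 and 156 CPM with CPI-0209 and 406, 468 and 374 CPM with vehicle. Its lowest vehicle library was above its highest CPI-0209 library by a wide gap, and it fell by 1.39 (SE 0.27, adjusted p = 0.000326).

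The carbonic anhydrases moved in opposite directions. Both enzymes sit in the cell membrane and interconvert carbon dioxide and bicarbonate outside the cell, and CA9 is a widely used hypoxia marker. CA9 (chr9:35673856-35681159, plus strand) had 0.334, 0.517 and 0.669 CPM with CPI-0209, from counts of 6, 9 and 7, and 4.21, 4.99 and 2.65 CPM with vehicle, from counts of 93, 119 and 57. The groups did not overlap, and CA9 fell by 3.01 on the log2 scale (SE 0.51, adjusted p = 8.02e-05). A count of 3, the limit that a count of 0 allows, stands at 0.178, 0.181 and 0.308 CPM in these CPI-0209 libraries, below each value, and covers counting error only. CA12 (chr15:63321378-63382161, minus strand) had 20.0, 27.4 and 27.1 CPM with CPI-0209, 11.2, 13.0 and 19.4 CPM with Valemetostat, 14.2, 12.1 and 13.5 CPM with MAK683, 4.20, 3.62 and 3.28 CPM with tazemetostat, 7.43, 6.32 and 7.90 CPM with PF-06821497, 5.86, 7.43 and 3.00 CPM with CPI-1205 and 4.35, 4.15 and 3.45 CPM with vehicle. CPI-0209, Valemetostat, MAK683 and PF-06821497 libraries all lay above every vehicle library, while tazemetostat and CPI-1205 libraries overlapped the vehicle range. CA12 rose with CPI-0209 (2.64 ± 0.25, adjusted p = 5.77e-08), Valemetostat (1.87 ± 0.25, adjusted p = 7.76e-06), MAK683 (1.73 ± 0.25, adjusted p = 3.64e-05) and PF-06821497 (0.85 ± 0.25, adjusted p = 0.0321). For PF-06821497 that call was lost without vehicle 1, 2 or 3 or without PF-06821497 1 or 3, with adjusted p of 0.06 to 0.141.

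Of the secreted factors, VEGFA (chr6:43770184-43786487, plus strand), the main growth factor for blood vessels, had 793, 614 and 762 CPM with CPI-0209 and 1068, 1050.2 and 1060.3 CPM with vehicle. The vehicle libraries were close to each other and all above the CPI-0209 libraries, and VEGFA fell by 0.55 (SE 0.14, adjusted p = 0.00256). Adrenomedullin (ADM), a peptide that widens vessels, averaged 72.4 ± 5.72 CPM with CPI-0209 and 202 ± 52.8 CPM with vehicle and fell by 1.48 (SE 0.36, adjusted p = 0.00268). Angiopoietin-like 4 (ANGPTL4, chr19:8363289-8374373, plus strand), an inhibitor of lipoprotein lipase, had 79.3, 119 and 79.7 CPM with CPI-0209 and 98.1, 105 and 61.2 CPM with vehicle. The ranges overlapped, and its log2 fold change was 0.08 ± 0.23 with a 95% interval of -0.40 to 0.55 (adjusted p = 0.818). The glycoprotein hormone stanniocalcin 2 (STC2, chr5:173314713-173329503, minus strand) had 77.1, 131 and 76.6 CPM with CPI-0209 and 47.0, 48.4 and 43.8 CPM with vehicle. All CPI-0209 libraries were higher, and STC2 rose by 1.03 ± 0.26 (adjusted p = 0.00303).

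The mitophagy receptors BNIP3 and BNIP3L are outer membrane proteins that mark mitochondria for removal, and of the pair only BNIP3L fell with CPI-0209; the difference between them was not tested. BNIP3L (chr8:26382898-26505636, plus strand) had 48.5, 43.4 and 50.2 CPM with CPI-0209, 62.3, 73.5 and 47.5 CPM with Valemetostat, 81.3, 78.2 and 83.7 CPM with MAK683 and 122, 134 and 122 CPM with vehicle. These 3 compound groups lay wholly below vehicle, in the order CPI-0209, Valemetostat and MAK683 by mean, with overlap between neighbours only for CPI-0209 and Valemetostat. BNIP3L fell with each of them, by 1.41 (adjusted p = 1.16e-06), 1.04 (adjusted p = 6.88e-05) and 0.64 (adjusted p = 0.0104) in that order. BNIP3 (chr10:131966455-131982013, minus strand) had 1.39, 1.95 and 3.15 CPM with CPI-0209, from counts of 25, 34 and 33, and 1.86, 1.76 and 1.54 CPM with vehicle, from counts of 41, 42 and 33. The ranges overlapped, and its log2 fold change was 0.29 ± 0.26 (adjusted p = 0.4).

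Of the genes of collagen maturation, P4HA1 and LOXL2 fell and LOX rose with CPI-0209. P4HA1 (chr10:73007217-73096974, minus strand), the catalytic subunit of collagen prolyl hydroxylase, had 34.2, 33.5 and 35.8 CPM with CPI-0209, 51.3, 60.7 and 37.3 CPM with Valemetostat, 61.5, 66.2 and 57.3 CPM with MAK683, 91.5, 98.3 and 95.4 CPM with tazemetostat, 55.1, 49.2 and 65.3 CPM with PF-06821497, 104, 63.7 and 51.4 CPM with CPI-1205 and 98.2, 109.5 and 109.7 CPM with vehicle. CPI-0209, Valemetostat, MAK683 and PF-06821497 libraries lay below all vehicle libraries, and the highest tazemetostat and CPI-1205 libraries were within the vehicle range. P4HA1 fell with CPI-0209 (-1.62 ± 0.19, adjusted p = 1.13e-06), Valemetostat (-1.09 ± 0.19, adjusted p = 0.000172), PF-06821497 (-0.90 ± 0.19, adjusted p = 0.00346) and MAK683 (-0.78 ± 0.19, adjusted p = 0.00605). LOX (chr5:122063195-122078285, minus strand), which cross-links collagen, had 10.8, 13.5 and 13.4 CPM with CPI-0209, 14.0, 12.5 and 10.4 CPM with Valemetostat, 18.7, 10.1 and 7.32 CPM with MAK683, 3.32, 4.75 and 3.50 CPM with tazemetostat, 10.7, 3.87 and 5.18 CPM with PF-06821497, 1.86, 1.98 and 1.16 CPM with CPI-1205 and 2.76, 2.10 and 2.70 CPM with vehicle. Every library of the compounds other than CPI-1205 was above every vehicle library, and every CPI-1205 library was below. LOX rose with CPI-0209 (2.31 ± 0.34, adjusted p = 1.73e-05), Valemetostat (2.29 ± 0.34, adjusted p = 3.3e-05), MAK683 (2.25 ± 0.34, adjusted p = 7.47e-05) and PF-06821497 (1.38 ± 0.34, adjusted p = 0.0129). For PF-06821497 the value was 0.86 without its library 1 (adjusted p = 0.0914), and adjusted p was 0.0672 without vehicle library 2. The related cross-linking enzyme LOXL2 fell, with 20.1 ± 2.28 CPM with CPI-0209 and 51.6 ± 3.73 CPM with vehicle, a change of -1.35 ± 0.19 (adjusted p = 6.72e-06). The second prolyl hydroxylase subunit P4HA2, at -0.22 ± 0.19, and the oxidative folding enzyme ERO1A, at -0.38 ± 0.17, did not pass the test with CPI-0209.

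**Figure D3:**
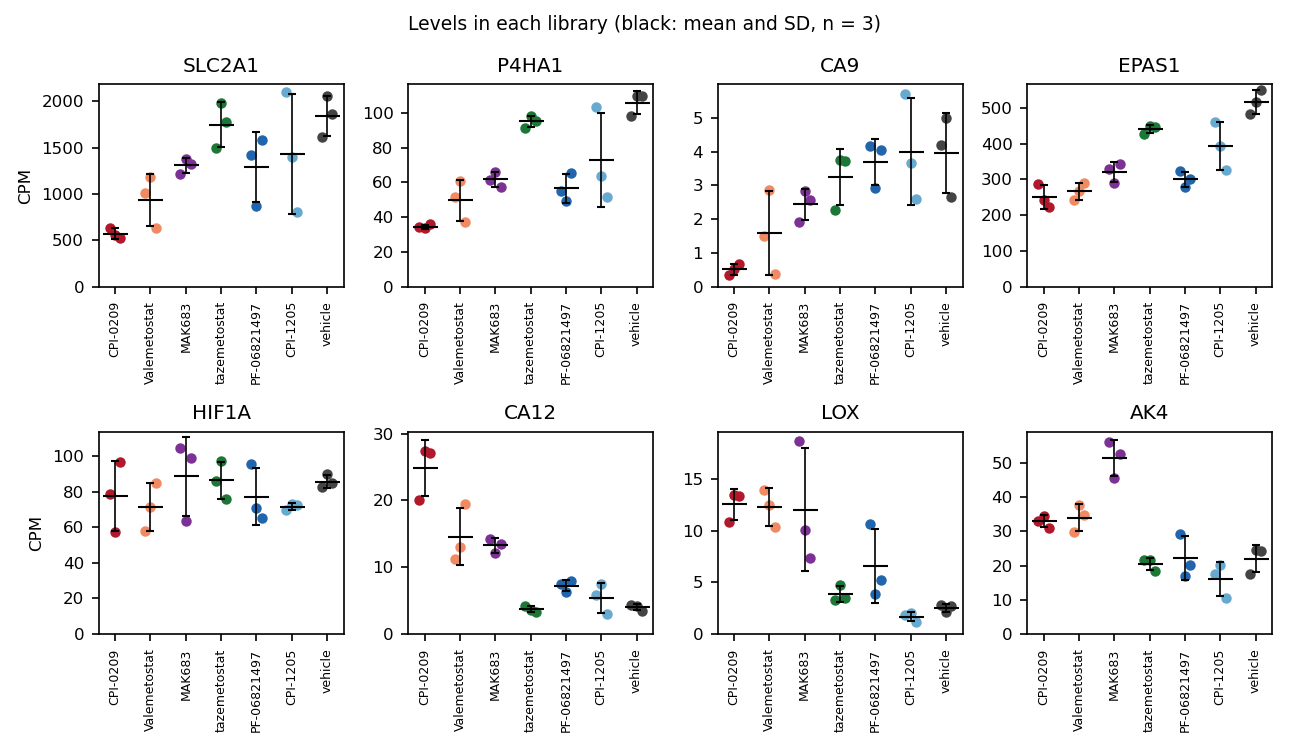
CPM by library for selected genes in the 7 groups, vehicle last; coloured points are libraries and black marks the group mean with SD (n = 3). SLC2A1, P4HA1, CA9 and EPAS1 have their lowest means with CPI-0209, CA12 and LOX have their highest means with CPI-0209, and AK4 has its highest with MAK683.

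In the last group, the histone demethylase KDM3A (chr2:86440647-86492716, plus strand) had 44.1, 39.2 and 44.2 CPM with CPI-0209 and 101, 109 and 103 CPM with vehicle. The groups stood far apart, and KDM3A fell by 1.30 (SE 0.20, adjusted p = 2.84e-05). MXI1 (chr10:110207605-110287365, plus strand), an antagonist of MYC, had 25.8, 19.8 and 25.4 CPM with CPI-0209 and 48.7, 55.3 and 53.8 CPM with vehicle. They did not overlap, and MXI1 fell by 1.15 (SE 0.21, adjusted p = 0.000192). The stress-induced gene NDRG1 averaged 475 ± 17.7 CPM with CPI-0209 and 1166 ± 129 CPM with vehicle and fell by 1.30 (SE 0.32, adjusted p = 0.00329). DDIT4, an inhibitor of mTOR signalling, averaged 255 ± 14.2 CPM with CPI-0209 and 494 ± 61.3 CPM with vehicle and fell by 0.95 (SE 0.22, adjusted p = 0.00138). ANKRD37 fell by 1.18 (SE 0.35, adjusted p = 0.0111), and the transcriptional repressor BHLHE40 did not pass the test, at -0.23 ± 0.22 (adjusted p = 0.413). The mitochondrial adenylate kinase AK4 (chr1:65147549-65232145, plus strand) had 33.0, 34.7 and 31.1 CPM with CPI-0209, 56.3, 45.7 and 52.7 CPM with MAK683 and 17.6, 24.5 and 24.1 CPM with vehicle. Both compounds were above vehicle in every library, MAK683 the more so. AK4 rose by 0.58 ± 0.20 with CPI-0209 (adjusted p = 0.0257) and by 1.22 ± 0.20 with MAK683 (adjusted p = 0.000171). The CPI-0209 call was lost without vehicle 1 (adjusted p = 0.136) or CPI-0209 2 (adjusted p = 0.0777), and with the muscle marker covariate the value was 0.37 (adjusted p = 0.177).

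Promoter windows from RefSeq (GRCh38.p14, 250 bases before to 50 bases after the annotated start) were matched by symbol for 39 of the 43 genes. Those without a window were VEGFA, BNIP3L, LOXL2 and NDRG1, all of which fell with CPI-0209. Genes with several RefSeq starts, such as HK1 with 7 and LOX with 3, were given 1 window, at the most upstream start. Windows at their other starts were not searched. The HIF core ACGTG, read on both strands, was present in 18 of 39 windows (46.2%), against 5890 of 27305 windows of all genes (21.6%). It was in 11 of 22 windows of genes that fell with CPI-0209 (50%), in 2 of 4 of those that rose (50%) and in 5 of 13 of those not called (38.5%). GCGTG was present in 51.3% of the windows of these genes and 36.4% of all windows, with 10 of 22 among genes that fell (45.5%), 3 of 4 among those that rose (75%) and 7 of 13 among those not called (53.8%), and CACGTG, in which ACGTG on the 2 strands overlaps, in 17.9% of these and 7.41% of all. A match describes the letters and is not a shown site of binding. The 43 genes were chosen as known hypoxia and glycolysis genes, and the base composition of the windows was not compared. The higher shares than in all windows are therefore descriptive and bear on no effect of the compounds. The windows of 3 genes that fell and 2 that rose are printed because they show ACGTG in genes of both directions of change and a window with none. They are CA9 (chr9:35673678-35673977, plus strand), P4HA1 (chr10:73096817-73097116, minus strand), LDHA (chr11:18394313-18394612, plus strand), LOX (chr5:122078210-122078509, minus strand) and CA12 (chr15:63381797-63382096, minus strand), each written 5′ to 3′ on the strand of the gene with matches to ACGTG or its reverse complement CACGT in capitals.
CA9: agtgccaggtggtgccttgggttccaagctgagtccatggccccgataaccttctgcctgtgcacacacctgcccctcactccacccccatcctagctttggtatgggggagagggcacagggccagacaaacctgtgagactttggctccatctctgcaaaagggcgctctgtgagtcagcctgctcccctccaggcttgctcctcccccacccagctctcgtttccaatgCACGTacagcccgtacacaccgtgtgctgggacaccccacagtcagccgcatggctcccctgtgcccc
P4HA1: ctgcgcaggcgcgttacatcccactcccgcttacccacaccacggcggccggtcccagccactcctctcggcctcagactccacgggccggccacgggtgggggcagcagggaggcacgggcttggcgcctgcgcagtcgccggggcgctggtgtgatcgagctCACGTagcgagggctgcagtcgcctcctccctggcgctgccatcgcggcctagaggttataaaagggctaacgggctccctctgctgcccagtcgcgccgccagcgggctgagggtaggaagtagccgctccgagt
LDHA: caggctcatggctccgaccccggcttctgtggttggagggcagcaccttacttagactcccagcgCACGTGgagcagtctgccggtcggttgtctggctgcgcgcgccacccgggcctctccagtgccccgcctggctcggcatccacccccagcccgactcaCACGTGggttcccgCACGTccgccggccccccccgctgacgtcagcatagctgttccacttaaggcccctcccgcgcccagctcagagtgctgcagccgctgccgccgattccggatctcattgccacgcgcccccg
LOX: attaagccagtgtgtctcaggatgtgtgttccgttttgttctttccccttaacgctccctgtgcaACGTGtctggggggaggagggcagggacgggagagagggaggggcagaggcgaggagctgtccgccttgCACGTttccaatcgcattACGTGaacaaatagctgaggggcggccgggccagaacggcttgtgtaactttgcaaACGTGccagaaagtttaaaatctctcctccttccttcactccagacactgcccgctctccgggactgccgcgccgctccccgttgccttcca
CA12: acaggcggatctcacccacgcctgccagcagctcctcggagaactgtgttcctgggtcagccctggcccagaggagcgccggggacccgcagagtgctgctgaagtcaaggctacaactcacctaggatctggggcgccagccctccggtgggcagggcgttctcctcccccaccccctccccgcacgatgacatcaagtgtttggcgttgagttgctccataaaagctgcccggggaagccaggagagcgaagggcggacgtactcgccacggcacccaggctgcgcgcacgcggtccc
The single CA9 match began 18 bases before the start and the single P4HA1 match 86 bases before it. LDHA, which fell, had 5 matches, 4 of them as overlapping pairs in CACGTG. LOX, which rose, had 4 separate matches, and CA12, which rose more, had no ACGTG in this window but 2 matches to GCGTG.

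The other 5 compounds share the vehicle libraries with CPI-0209, so their results are given side by side and their counts are not independent. With Valemetostat, 16 of the 43 genes fell and 4 rose, against 12.2% and 15% of all genes tested, and the median log2 fold change was -0.35. The 16 were SLC2A1, HK1, HK2, PFKFB4, LDHA, PDK1, EPAS1, EGLN1, EGLN3, CA9, VEGFA, BNIP3L, P4HA1, LOXL2, KDM3A and MXI1, and the 4 were CA12, LOX, STC2 and AK4. None of the 11 glycolytic enzymes passed the test, and their median was -0.17. LDHA had 2447, 2724 and 1978 CPM with Valemetostat and fell by 0.40 (SE 0.14, adjusted p = 0.0423). PDK1 had 11.8, 20.9 and 9.93 CPM with Valemetostat, its library 2 being well above the others, and fell by 0.82 (SE 0.24, adjusted p = 0.0131). CA9 had 1.49, 2.86 and 0.386 CPM with Valemetostat, a range that reached into that of vehicle, and fell by 1.31 (SE 0.42, adjusted p = 0.0229). STC2 had 122, 77.9 and 92.1 CPM with Valemetostat and rose by 1.07 ± 0.26 (adjusted p = 0.00378). AK4 rose by 0.62 ± 0.20 (adjusted p = 0.0236). Library 3 of Valemetostat was the lowest for most genes. Without it 6 genes fell, and without its library 1 10 fell, though the shares of all genes that fell in these fits are not given here. Without library 3, SLC2A1 stood at -0.73 (adjusted p = 0.0722), PDK1 at -0.59 (adjusted p = 0.0894), LDHA at -0.26 (adjusted p = 0.255) and CA9 at -0.84 (adjusted p = 0.105), and without library 2 CA9 stood at -2.04. The LDHA call held only without CPI-0209 2 or 3, Valemetostat 2, MAK683 2, tazemetostat 2 or 3, PF-06821497 2 or 3 or CPI-1205 1, and that of EGLN3 only without CPI-0209 2 or 3, Valemetostat 2, tazemetostat 2 or 3, PF-06821497 2 or 3 or any CPI-1205 library (adjusted p in the others up to 0.206 for EGLN3). CA9 also lost its call without vehicle 1 or 2 or Valemetostat 1, VEGFA without vehicle 1 or 3 or Valemetostat 1, and AK4 without vehicle 1 or Valemetostat 2. HK2 lost its call without vehicle 2 or Valemetostat 1 or 3, MXI1 without vehicle 2 or 3 or Valemetostat 3, HK1 and EGLN1 without vehicle 3 or Valemetostat 3, PDK1 also without Valemetostat 1, and PFKFB4 without Valemetostat 3. Without Valemetostat 3 MXI1 stood at -0.42; adjusted p in these fits ran up to 0.155.

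With MAK683, 3 of the 43 genes fell and 5 rose, against 5.17% and 10.4% of all genes tested, with a median of -0.17. EPAS1, BNIP3L and P4HA1 fell, and CA12, LOX, STC2, AK4 and PFKFB3 rose. SLC2A1 had 1214, 1381 and 1324 CPM with MAK683, all below the vehicle libraries, a change of -0.50 ± 0.27 that did not pass the test (adjusted p = 0.245). PFKFB3 had 133, 115 and 142 CPM with MAK683 and 78.9, 73.5 and 39.3 CPM with vehicle, where library 3 was low. It rose by 1.02 ± 0.34 (adjusted p = 0.0472), and stood at 0.77 without vehicle library 3 (adjusted p = 0.201), and its call held only without PF-06821497 1 or 2 or CPI-1205 2 or 3 when single libraries were left out (adjusted p up to 0.201 in the others). STC2 had 96.8, 85.8 and 88.7 CPM with MAK683 and rose by 0.96 ± 0.26 (adjusted p = 0.0132), or 0.93 without vehicle library 3 (adjusted p = 0.0602), where 3 of the 43 rose. Without MAK683 library 2, 5 fell. With PF-06821497, 3 genes fell and 2 rose, against 3.59% and 5.96% of all genes tested, with a median of -0.17. EPAS1, P4HA1 and HK1 fell, and CA12 and LOX rose. HK1 had 262, 223 and 268 CPM with PF-06821497 and fell by 0.38 (SE 0.12, adjusted p = 0.0438), a call that held only without CPI-0209 2 or 3 or CPI-1205 1 or 3 when single libraries were left out (adjusted p up to 0.178 in the others). No gene rose without vehicle 2 or PF-06821497 1, and 1 rose without vehicle 1, vehicle 3 or PF-06821497 3. Without CPI-1205 1, 5 fell.

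With tazemetostat none of the 43 genes passed the edgeR test and the median was 0.01. Among all genes tested 0% were called, 647 had an unadjusted p under 0.05, none of them among the 43, and DESeq2 called 6 genes and limma-voom 0. SLC2A1 had 1494, 1975 and 1772 CPM, P4HA1 91.5, 98.3 and 95.4 CPM and PDK1 24.3, 31.7 and 21.4 CPM with tazemetostat, each overlapping vehicle. With CPI-1205 none passed the edgeR test either and the median was -0.27. Among all genes tested 0% were called, 2713 had an unadjusted p under 0.05, 11 of the 43 among them, and DESeq2 called 22 genes and limma-voom 0. The 95% interval of the SLC2A1 change was -0.63 to 0.48 with tazemetostat and -0.92 to 0.19 with CPI-1205. The value seen with CPI-0209 lies outside both, its own SE aside. The spread behind these intervals was estimated over all 21 libraries, and the CPI-1205 libraries lay far apart, as given below.

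**Figure D4:**
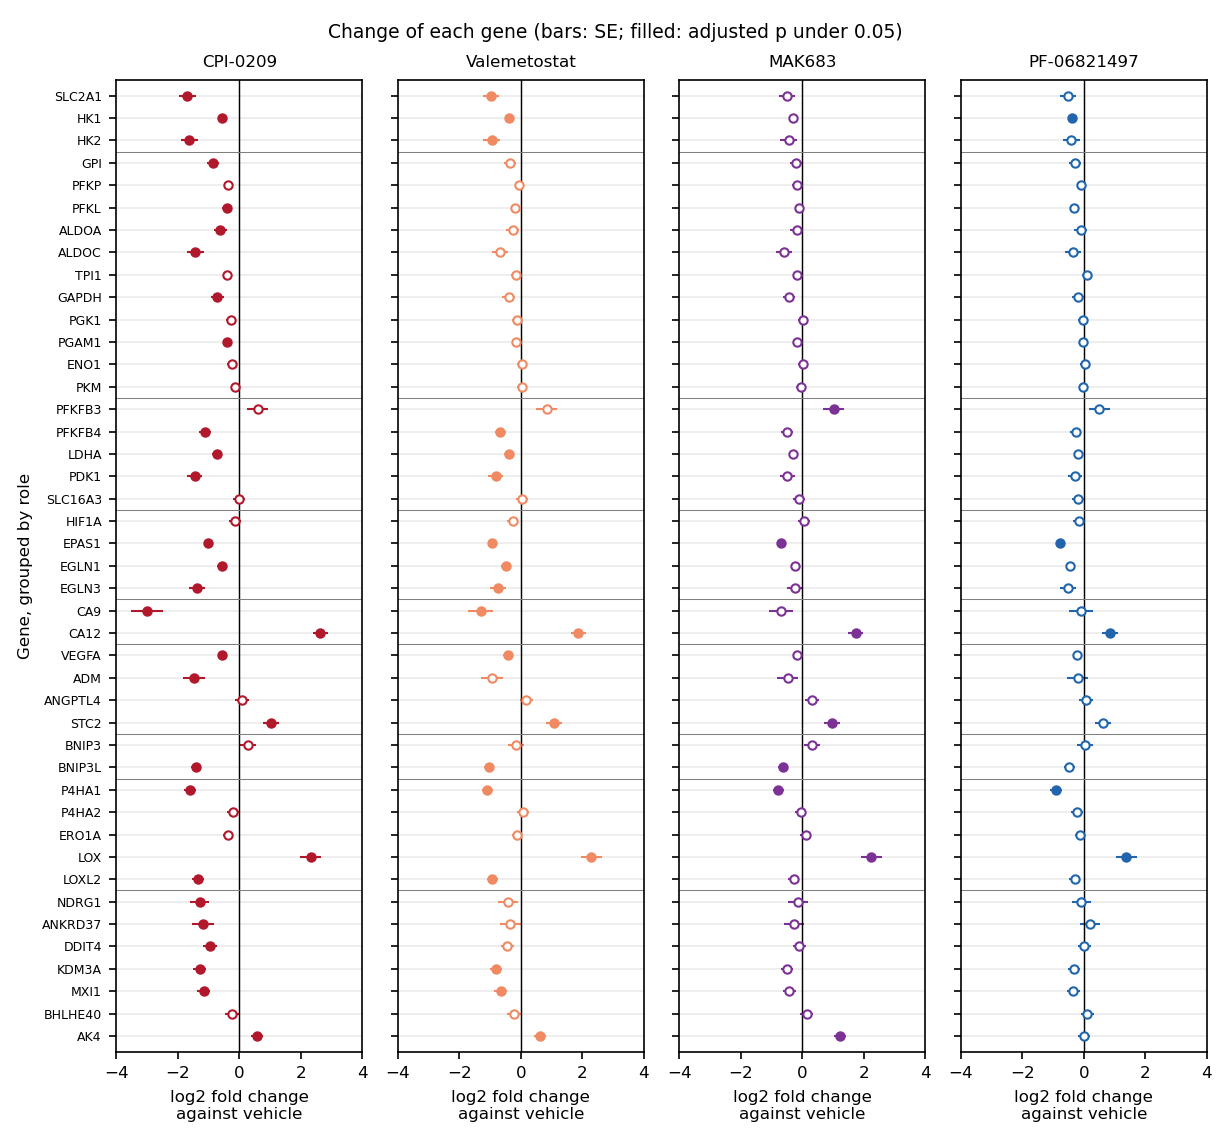
Log2 fold change against vehicle of each of the 43 genes for CPI-0209, Valemetostat, MAK683 and PF-06821497; bars are the SE and filled points had an adjusted p under 0.05. Values with CPI-0209 reach -3.01 for CA9 and 2.64 for CA12, and the fewest points are filled for PF-06821497.

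Libraries within the Valemetostat, PF-06821497 and CPI-1205 groups lay far apart. The mean deviation of the 43 genes from vehicle, in log2 CPM, was -0.57, -0.54 and -0.62 in the CPI-0209 libraries. It was -0.18, -0.06 and -0.60 with Valemetostat, -0.08, -0.00079 and -0.08 with MAK683, and -0.07, 0.15 and 0.03 with tazemetostat. It was 0.01, -0.52 and 0.08 with PF-06821497, -0.05, -0.24 and -0.55 with CPI-1205, and 0.04, 0.08 and -0.12 with vehicle. Valemetostat library 3, PF-06821497 library 2 and CPI-1205 library 3 thus stood near the CPI-0209 level, with 38, 40 and 41 of the 43 genes below the vehicle mean, against 38, 33 and 36 in the CPI-0209 libraries. In PF-06821497 library 2 the glycolysis genes averaged -0.48 and the other targets -0.55, and in CPI-1205 library 3 they averaged -0.43 and -0.64. SLC2A1 shows the spread, with 1421, 866 and 1583 CPM with PF-06821497 and 2100.5, 1395 and 803 CPM with CPI-1205. The low PF-06821497 and CPI-1205 libraries have count columns with the resubmission mark, and Valemetostat library 3 has none; in the sample titles the PF-06821497 mark is on library 1 instead. Without the 3 column-marked libraries only library 1 of CPI-1205 remained, and its median was -0.0018. Libraries 1 and 3 of PF-06821497 remained, with a median of -0.04 and 2 genes lower and 5 higher. Without the title-marked libraries the PF-06821497 median was -0.19, with 3 genes lower and 1 higher. Of the genes called with PF-06821497, EPAS1 stood at -0.72, P4HA1 at -0.80, CA12 at 0.96 and LOX at 1.66 without the column-marked libraries (adjusted p = 0.00123 to 0.00445), and HK1 at -0.29 (adjusted p = 0.197). Without the title-marked libraries EPAS1, P4HA1 and CA12 also passed the test, while HK1 (adjusted p = 0.0834) and LOX (0.86, adjusted p = 0.0788) did not. With a term for the column mark in the fit, the CPI-1205 median was -0.03 and the PF-06821497 median -0.04. With a term for the title mark they were -0.23 and -0.12. Whether the mark and the lower values are linked was not tested beyond these fits. Summed carcinoma and urothelial markers also differed among these libraries, at 14879, 14098 and 9543 CPM in Valemetostat libraries 1, 2 and 3. They stood at 13974, 12547 and 16592 CPM with PF-06821497 and at 13002, 12933 and 11939 CPM with CPI-1205. Any link between these sums and the lower values was not tested.

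**Figure D5:**
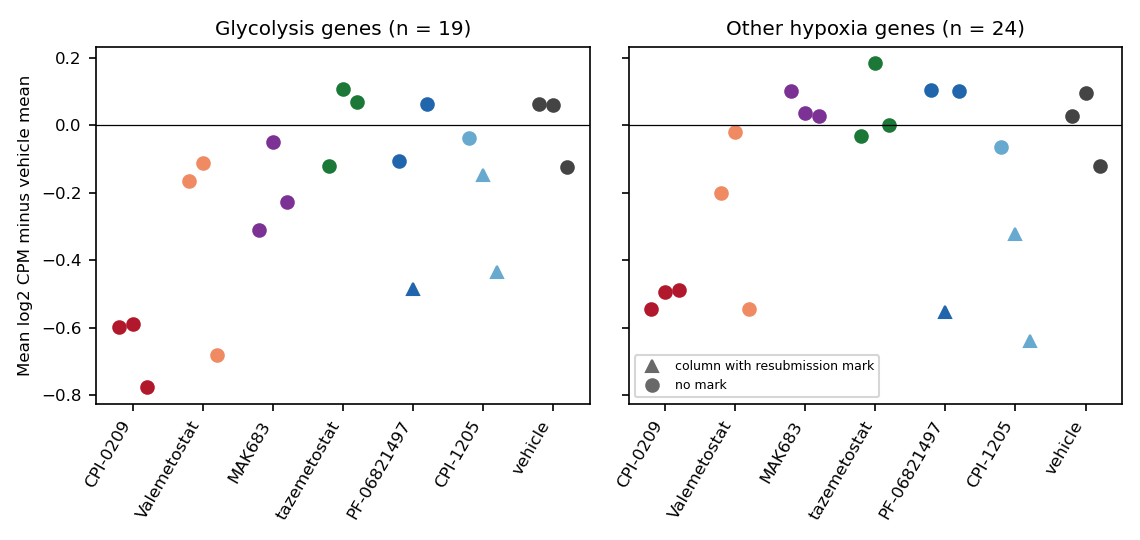
Mean log2 CPM minus the vehicle mean by library, for the 19 glycolysis genes and the 24 other HIF targets and oxygen-sensing genes; triangles are the libraries whose count column carries the resubmission mark and circles the others. For the glycolysis genes the CPI-0209 libraries run from -0.59 to -0.78, those of PF-06821497 from 0.06 to -0.48 and those of CPI-1205 from -0.04 to -0.43.

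Over the 6 compounds together, the contrast of their mean with vehicle called 14 of the 43 genes lower and 3 higher, against 9.42% and 10.7% of all genes tested. Without vehicle library 1, 2 or 3 it called 7, 5 and 8 lower, fits for which the shares of all genes are not given here. The compounds shared dose, schedule and sampling time, so their readouts could also be compared with each other. An overall test among the 6 called 27 of the 43 genes, against 32.3% of all genes tested, with 8 among the 19 glycolysis genes and 19 among the 24 others. Each of the 5 other compounds was then set against CPI-0209, in 5 pairs that share the CPI-0209 libraries. P-values were adjusted over genes within a pair and not over the pairs. With tazemetostat 28 genes were higher and 3 lower than with CPI-0209, against 16.7% and 20.3% of all genes, with a median of 0.63; without CPI-0209 library 1, 5 were lower. With CPI-1205 21 genes were higher and 5 lower than with CPI-0209, against 15.3% and 19.9%, with a median of 0.46. Without the column-marked libraries only library 1 of CPI-1205 remained, and the median was 0.59. With PF-06821497 20 genes were higher and 3 lower than with CPI-0209, against 8.66% and 13.9%, with a median of 0.40; 1 was lower without CPI-0209 library 2 or 3 or PF-06821497 library 2 or 3, and without the column-marked libraries 26 were higher and 1 lower, with a median of 0.57. With MAK683 15 genes were higher and 1 lower than with CPI-0209, against 4.03% and 5.05%, with a median of 0.43. The 15 became 5 without CPI-0209 library 2, 7 without CPI-0209 library 3 and 6 without MAK683 library 3.

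Between Valemetostat and CPI-0209 no gene of the 43 passed the edgeR test, and 0% of all genes were called. The median was 0.29, 18 of the 43 and 2708 of all genes had an unadjusted p under 0.05, and DESeq2 called 350 genes and limma-voom 61, none of the 43 with either. SLC2A1 was 0.72 ± 0.27 in Valemetostat over CPI-0209, with a 95% interval of 0.16 to 1.28 (adjusted p = 0.24). Without Valemetostat library 3, 3 genes were higher and 1 lower with Valemetostat than with CPI-0209.

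MAK683 differed from CPI-0209 in some genes and not detectably in others. SLC2A1 was 1.20 ± 0.27 higher (adjusted p = 0.00895), CA9 2.32 ± 0.53 (adjusted p = 0.00966) and P4HA1 0.84 ± 0.19 (adjusted p = 0.00944). CA12, which rose with both, was -0.90 ± 0.23 in MAK683 over CPI-0209 (adjusted p = 0.0183), a call lost without CPI-0209 2 or 3 or MAK683 2 or 3 (adjusted p = 0.0627 to 0.073). LOX differed by -0.06 ± 0.31, with a 95% interval of -0.71 to 0.59, and STC2 by -0.07 ± 0.25, with an interval of -0.60 to 0.46. AK4 was 0.64 ± 0.20 higher with MAK683 than with CPI-0209 (adjusted p = 0.0466), which was lost without vehicle 2 or 3, any CPI-0209 library, Valemetostat 3, MAK683 1 or 3 or tazemetostat 1 or 2 (adjusted p = 0.0504 to 0.146). Tazemetostat and CPI-1205 differed from CPI-0209 in both directions. LOX was -1.70 ± 0.33 in tazemetostat over CPI-0209 (adjusted p = 0.000377) and -2.90 ± 0.36 in CPI-1205 over CPI-0209 (adjusted p = 2.38e-06). STC2 was -1.62 ± 0.26 in CPI-1205 over CPI-0209 (adjusted p = 6.95e-05), and PFKFB3, with 44.1, 65.3 and 32.6 CPM in CPI-1205 and 95.9, 104 and 89.2 CPM in CPI-0209, was -1.03 ± 0.34 (adjusted p = 0.0244), a call lost without CPI-0209 2 or CPI-1205 1 or 3 (adjusted p = 0.0782 to 0.0969). EPAS1 was 0.81 ± 0.13 in tazemetostat over CPI-0209 (adjusted p = 3.93e-05), 0.65 ± 0.13 in CPI-1205 over CPI-0209 (adjusted p = 0.000395) and 0.26 ± 0.13 in PF-06821497 over CPI-0209 (adjusted p = 0.151).

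Genes of the same pathways outside the 43 were followed as lists. Of 38 other HIF targets, 21 fell and 4 rose with CPI-0209, with a median of -0.54, against -0.02 over all genes tested, of which 18.8% fell and 22.3% rose. Those that fell included GBE1, the glycogen branching enzyme, at -1.51 ± 0.13 (adjusted p = 2.01e-08), PLOD2, a collagen lysyl hydroxylase, at -1.19 ± 0.15 (adjusted p = 1.42e-06), and the transferrin receptor TFRC at -1.02 ± 0.18 (adjusted p = 0.000147). Those that rose included INHBA, a subunit of activins, with means of 183 CPM with CPI-0209 and 28.0 CPM with vehicle, at 2.71 ± 0.19 (adjusted p = 1.37e-09), and the chemokine receptor CXCR4 at 2.70 ± 0.42 (adjusted p = 2.86e-05). Of 15 genes of the HIF machinery, 4 rose and 3 fell, with a median of 0.05, shares near those of 22.3% and 18.8% over all genes. ARNT, the partner of HIF1A and EPAS1, averaged 62.3 CPM with CPI-0209 and 102 CPM with vehicle and fell by 0.70 (SE 0.13, adjusted p = 0.000179). Of 31 other glycolysis genes 21 were tested, and 9 rose and 5 fell, with a median of 0.25, beside the same 22.3% and 18.8%. These included isoforms of genes described above. PFKM, the muscle phosphofructokinase, averaged 37.1 CPM with CPI-0209 and 15.4 CPM with vehicle, at 1.27 ± 0.15 (adjusted p = 1.31e-06). It also rose with Valemetostat, to 32.1 CPM (1.06 ± 0.15, adjusted p = 2.08e-05). The pyruvate dehydrogenase kinase PDK3 averaged 4.19 CPM with CPI-0209 and 0.638 CPM with vehicle, at 2.69 ± 0.34 (adjusted p = 2.09e-06), opposite in direction to PDK1. The hexokinase HKDC1 averaged 7.39 CPM with CPI-0209 and 0.400 CPM with vehicle, at 4.19 ± 0.45 (adjusted p = 2.76e-07), opposite to HK1 and HK2. Of 23 genes of pyruvate oxidation and the citric acid cycle, 4 fell and none rose, with a median of -0.15; the share that fell was near the 18.8% of all genes. With Valemetostat, where 15% of all genes rose and 12.2% fell, 5 of the 38 other HIF targets rose and 11 fell, 6 of the 21 glycolysis genes rose and 0 fell, and with tazemetostat and CPI-1205 no gene of these lists passed the test.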

How the data were processed

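RNA-seq was deposited as raw counts per Ensembl gene, with gene length and exon coordinates, per the file headers. The authors named STAR 2.7.3a, RSEM 1.3.1 and the hg38 genome, per the submitters' processing notes. The sources used here do not give how reads were counted, the strand setting, the annotation release or any removal of mouse reads. The labels name an mRNA library kit and also call it strand specific. Gene coordinates were compared with GENCODE 29, in which 54773 of 57500 genes had the same start and end, and 56410 genes had a symbol.

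From the deposited counts, 1 edgeR 4.0.16 quasi-likelihood model (R 4.3.3, TMM scaling, filterByExpr by group, robust estimation) was fitted to all 21 libraries in 7 groups of 3, with a common biological coefficient of variation of 0.163 and 14 residual degrees of freedom. Tests were two-sided, with Benjamini-Hochberg adjustment over all 21958 genes tested. The SE is the log2 fold change divided by the square root of its F statistic, intervals are at the 95% level, and log2 CPM for library deviations used a prior count of 2. CPM and RPKM were computed from the counts, the TMM factors and the gene lengths in the files. The scripts were tested on simulated data.

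The 43 genes and the pathway and marker lists were chosen with earlier results of these data known. Values in every library are printed for genes known for hypoxia responses and, within each role, for the 2 with the smallest p for the mean of the 6 compounds. PFKFB3 and AK4 are printed by library as well, chosen after their values were seen. Genes of the other pathway lists are named by the smallest p in that same contrast. Alternatives covered filtering, scaling, DESeq2 1.42.0, limma-voom 3.58.1, fits of only the groups compared, a replicate block, the resubmission mark in the sample titles (PF-06821497 library 1, CPI-1205 libraries 2 and 3), and each library left out. The resubmission mark in the count columns, on PF-06821497 library 2 instead of library 1, and a muscle marker covariate were added after seeing the data. The libraries of a group differed from each other by more than sampling noise.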

Additional observations from a re-analysis of the deposited data

How the results depend on the processing

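Counts of the 43 genes, lower and then higher, kept within 1.5 times their value, single libraries left out aside, except as follows. Without a low-count filter 10 genes were lower with MAK683, against 3, 5 lower and 4 higher with PF-06821497, against 3 and 2, 4 lower with CPI-1205, against 0, and 1 lower and 14 higher with Valemetostat than with CPI-0209, against 0 and 0. Fitting only the groups compared gave 8 lower with MAK683, and this fit was not made for the mean of the compounds. The term for the column resubmission mark gave 5 lower with MAK683 and 1 lower with PF-06821497 than with CPI-0209, against 3. Without the column-marked libraries 5 were higher with PF-06821497, 5 higher for the mean of the compounds, against 3, and 1 lower with PF-06821497 than with CPI-0209. The muscle covariate gave 5 lower with PF-06821497, 0 lower with MAK683 than with CPI-0209, against 1, and 1 lower with PF-06821497 than with CPI-0209. Limma-voom, the term for the title mark and leaving out the title-marked libraries each gave 1 higher with PF-06821497. Upper-quartile scaling gave 9 lower for the mean of the compounds, against 14, while over the whole table it called 1403 genes lower, against 2068. Apart from the filter, the covariate and the smaller numbers of libraries or groups in a fit, the cause was not tested. For most of these fits, and for those without a single library, the share of all genes called is not given here. Their counts therefore cannot separate a change in the 43 genes from a change over the whole table.

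With upper-quartile scaling the median of all genes moved to 0.12 with CPI-0209, against -0.02, and the genes called over the whole table with CPI-0209 were 5858 higher and 2818 lower, against 4888 and 4129; of the 43, 23 were lower and 4 higher, with a median of -0.44. On leaving out single libraries, 23 to 29 genes were lower and 3 to 4 higher with CPI-0209, 6 to 18 lower and 3 to 5 higher with Valemetostat, 3 to 5 lower and 3 to 5 higher with MAK683, 2 to 5 lower and 0 to 3 higher with PF-06821497, none either way with tazemetostat or CPI-1205 (0 and 0), and 5 to 17 lower and 2 to 3 higher for the mean of the compounds. Relative to CPI-0209, 0 to 1 were lower and 0 to 3 higher with Valemetostat, 0 to 1 lower and 5 to 19 higher with MAK683, 2 to 5 lower and 21 to 30 higher with tazemetostat, 1 to 3 lower and 14 to 24 higher with PF-06821497, and 4 to 6 lower and 14 to 24 higher with CPI-1205. The overall test called 20 to 29.

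Over all alternatives, and over the named genes outside the 43 as well, 1 called value had the opposite sign. BHLHE40 in CPI-1205 over CPI-0209 stood at -0.14 (adjusted p = 0.672), and with the term for the column mark at 0.43 (edgeR, adjusted p = 0.0427). Replicate numbers did not pair the libraries: same-numbered libraries had a mean correlation of deviations of -0.03 over 63 pairs, other pairs 0.01 over 126, and 4 of 21 libraries correlated best with their own number. With a replicate block 25 genes were lower and 4 higher with CPI-0209 and 15 lower and 4 higher with Valemetostat. Depth limits CA9 with CPI-0209, which rests on counts of 6, 9 and 7.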
